A study of Mus musculus with 42 samples.

Results

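The chromodomain helicase DNA-binding (CHD) family was followed through the RNA-seq count table of a germ-cell knockout of *Chd8* in the mouse testis. Its members were taken by name, *Chd1* to *Chd9*, and matched to the table by gene ID, which found all 9 among 27179 genes. The libraries came from Thy1+ and c-Kit+ spermatogonia from C57BL/6J males at 10 days post-partum (dpp), with 3 control and 3 mutant libraries for each. Sorting used magnetic beads against the surface antigens Thy1 (the authors' choice for undifferentiated spermatogonia) and c-Kit (on spermatogonia that have begun to differentiate). Controls were *Ddx4-Cre*; *Chd8* +/F and mutants *Ddx4-Cre*; *Chd8* F/-, so that every animal carried the Cre transgene and 1 floxed allele. *Ddx4* is a germ cell gene, and its promoter drives Cre in germ cells only: germ cells of the controls keep 1 intact *Chd8* allele, those of the mutants none, and the somatic cells of the mutants carry 1 deleted allele that those of the controls do not. The methods name 3 male pups for each analysis without saying whether each library is 1 pup, so the p-values measure the spread between libraries. The question was whether the paralogs of *Chd8* change when *Chd8* is lost.

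CHD proteins are ATP-driven motors that move, space or remove nucleosomes. All have paired chromodomains, which read histone tails, in front of a SNF2-type ATPase, and they fall into 3 subfamilies: CHD1 and CHD2, which travel with transcription; CHD3, CHD4 and CHD5, the alternative motors of the nucleosome remodeling and deacetylase (NuRD) complex; and CHD6, CHD7, CHD8 and CHD9, which bind promoters and enhancers. CHD4 is needed in spermatogonia, CHD5 in the chromatin of late spermatids, and mutations of CHD7 and CHD8 cause CHARGE syndrome and a form of autism.

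The floxed allele of *Chd8* lacks exons 11 to 13 after Cre, and the part that is lost holds the first ATP-binding motif (Walker A) of the motor. *Chd8* lies on the minus strand of chromosome 14 (mm10), and its RefSeq transcript NM_201637.3 has 38 exons, whereas the count table lists 37 because the 83-base first exon is absent from it. Counted along the RefSeq transcript, exons 11 to 13 lie within chr14:52220914-52222619 and hold 504 coding bases. Counted along the table's own exons, they lie within chr14:52219597-52221424 and hold 543 coding bases. Both lengths are multiples of 3, and they make up 6.15% and 6.63% of the 8190 bases on which *Chd8* was counted. Which numbering the allele follows is not given in the sources used here, but exon 13 of the RefSeq transcript is lost under both. It is shown because it carries the codons of the Walker A motif, in capitals, 5′ to 3′ on the coding strand (chr14:52220914-52221157, RefSeq sequence of the GRCm38 build).
Chd8 exon 13: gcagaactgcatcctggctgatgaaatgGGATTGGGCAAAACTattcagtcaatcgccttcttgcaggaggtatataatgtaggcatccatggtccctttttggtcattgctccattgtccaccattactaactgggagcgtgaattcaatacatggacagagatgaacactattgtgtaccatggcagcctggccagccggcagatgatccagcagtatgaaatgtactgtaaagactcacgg

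**Figure D1:**
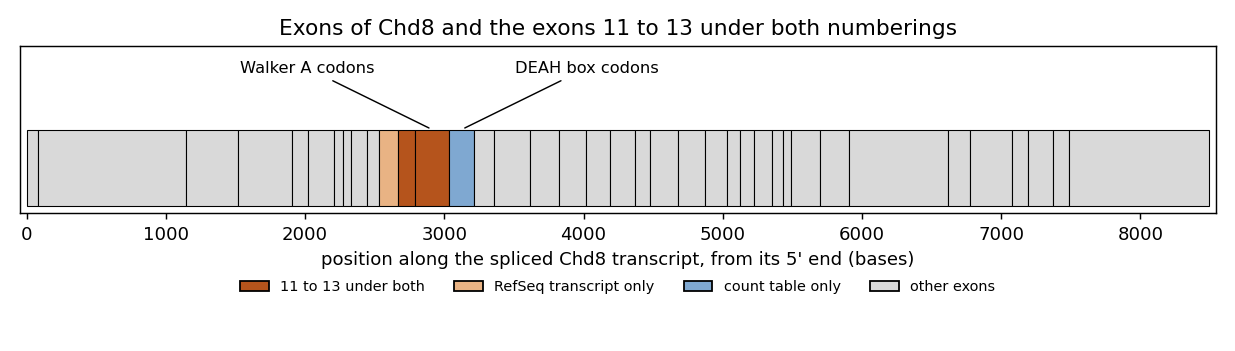
Exons of *Chd8* drawn to scale along its spliced RefSeq transcript, with the distance from the 5′ end in bases. The exon with the Walker A codons is among exons 11 to 13 under both numberings, whereas the exon with the codons of the DEAH box, the second ATPase motif, is among them only in the numbering of the count table.

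The same motif can be laid side by side in all 9 genes, and it is shown because it lies in the lost exon of *Chd8* and its residues are kept in every paralog. Each window below holds 39 coding bases within 1 exon, 5′ to 3′, with the codons of the Walker A motif in capitals.
Chd1 (chr17:15735644-15735682, plus strand): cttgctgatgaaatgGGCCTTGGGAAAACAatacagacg
Chd2 (chr7:73493587-73493625, minus strand): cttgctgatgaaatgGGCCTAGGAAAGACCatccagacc
Chd3 (chr11:69357735-69357773, minus strand): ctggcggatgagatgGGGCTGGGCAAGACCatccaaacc
Chd4 (chr6:125107591-125107629, plus strand): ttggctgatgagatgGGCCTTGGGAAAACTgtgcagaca
Chd5 (chr4:152367405-152367443, plus strand): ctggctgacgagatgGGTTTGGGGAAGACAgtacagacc
Chd6 (chr2:161019644-161019682, minus strand): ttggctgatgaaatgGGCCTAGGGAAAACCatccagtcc
Chd7 (chr4:8826897-8826935, plus strand): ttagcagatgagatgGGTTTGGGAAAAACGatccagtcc
Chd8 (chr14:52221106-52221144, minus strand): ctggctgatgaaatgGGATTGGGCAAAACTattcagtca
Chd9 (chr8:90989443-90989481, plus strand): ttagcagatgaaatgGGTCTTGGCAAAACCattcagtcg
The other 8 genes shared 29 to 31 of these 39 bases with *Chd8*, and between 9 and 12 of the 15 in capitals, while the translated motif is the same in all 9. Over the whole of the translated RefSeq coding sequences, CHD1 and CHD2 were identical at 63.7% of aligned residues, the 3 NuRD motors at 73.0% to 74.3% and CHD6 to CHD9 at 50.8% to 56.7%. CHD8 was identical to the members of the other subfamilies at 30.9% to 35.9%.

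Library totals ran from 32266861 to 45396233 counts, and the 9 genes together took 0.176% to 0.214% of them. To check the sort, the gene of each antigen was examined: *Kit* stood at a level of 626 to 782 CPM (counts scaled to library size) in the c-Kit+ libraries against 171 to 432 CPM in the Thy1+ libraries, and *Thy1* at 11.7 to 17.1 CPM in the Thy1+ libraries against 0.436 to 1.07 CPM in the c-Kit+ libraries. Markers of somatic testis cells (44 genes of Sertoli, Leydig, myoid, stromal, endothelial, macrophage, mast and erythroid cells) summed to 11900 to 20600 CPM in the Thy1+ libraries and to 3010 to 6960 CPM in the c-Kit+ libraries, beside 993 to 1960 and 1640 to 2440 CPM for 5 germ cell markers. Both populations therefore held somatic RNA. Most of the sum in the Thy1+ libraries came from 6 stromal genes (11000 to 18900 CPM, against 1790 to 4320 CPM in the c-Kit+ libraries), whereas 6 Leydig cell markers summed to 233 to 510 CPM in the Thy1+ and to 626 to 2000 CPM in the c-Kit+ libraries, and 5 mast cell markers to 2.24 to 7.89 and to 12.5 to 59.1 CPM. Throughout, fewer cells of a type and less RNA per cell cannot be told apart in these bulk libraries.

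Among the 9 genes *Chd4* had by far the most message for its length. The mean over the 12 libraries, in CPM per kilobase of counted exon (RPKM), was 121 for *Chd4*, 48.4 for *Chd3*, 34.5 for *Chd8*, 23.6 for *Chd6*, 13.6 for *Chd2*, 8.07 for *Chd1*, 5.19 for *Chd9*, 5.05 for *Chd7* and 3.75 for *Chd5*. This placed *Chd4* above 97.6% and *Chd8* above 85.4% of the 18002 genes that passed the filter on low counts, and *Chd5* above 38.8% of them. The order *Chd4*, *Chd3*, *Chd8*, *Chd6*, *Chd2* held in all 4 groups, with no overlap of libraries between neighbours. Below *Chd2* the order differed from group to group: *Chd5* came last in both Thy1+ groups and in the mutant c-Kit+ group, but sixth in the control c-Kit+ group, where its libraries overlapped those of *Chd1*. The libraries of *Chd1* overlapped those of *Chd7* in Thy1+ controls and those of *Chd9* in Thy1+ mutants, and *Chd7* and *Chd9* overlapped in Thy1+ controls and c-Kit+ mutants.

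**Figure D2:**
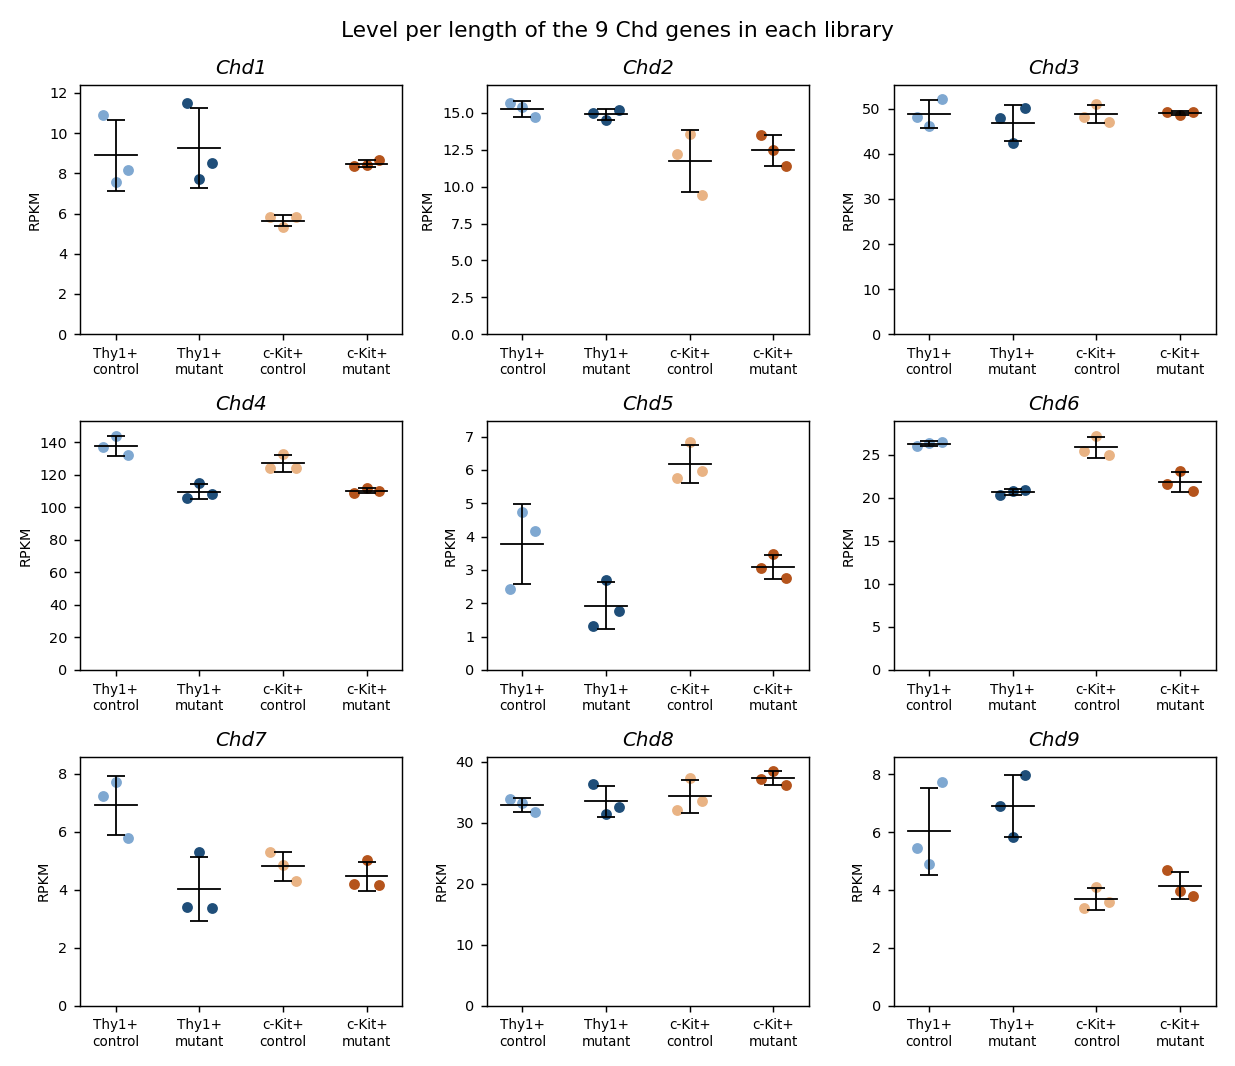
RPKM (vertical axis, from 0, a scale of its own for each gene) of the 9 *Chd* genes in each of the 12 libraries (points, replicates 1 to 3 from left to right), with the mean (long line) and SD (short bars) of 3 libraries. Mutant libraries of *Chd4* and *Chd6* lie below all control libraries in both populations, those of *Chd5* and *Chd1* are set apart from controls in the c-Kit+ population, and those of *Chd8* overlap with controls.

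The whole-gene counts of *Chd8* did not show its deletion. In Thy1+ cells *Chd8* stood at 271, 270 and 252 CPM in the controls and at 292, 256 and 262 CPM in the mutants. In c-Kit+ cells it stood at 273, 317 and 286 CPM in the controls and at 303, 315 and 296 CPM in the mutants. Control and mutant libraries overlapped in both populations. The log2 fold change, mutant minus control, was 0.03 in Thy1+ cells (SE 0.09, 95% interval -0.19 to 0.25, adjusted p = 0.896) and 0.06 in c-Kit+ cells (SE 0.07, 95% interval -0.09 to 0.21, adjusted p = 0.491). These and the following adjusted p-values are from the quasi-likelihood test of edgeR over all genes, with the Benjamini-Hochberg method. One count per gene cannot tell reads of exons 11 to 13 from reads of the rest of its length, so these values check neither the genotype nor the protein.

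*Chd8* loss went with lower *Chd5* and higher *Chd1* in c-Kit+ spermatogonia. *Chd5* fell by 51.9%, and *Chd1* rose by 44.2%, whereas among the closest relatives of *Chd8* *Chd6* was lower by 18.8%, short of the fold required for a call, and *Chd7* and *Chd9* did not pass the test. A gene was called when its adjusted p was under 0.05 and its log2 fold change was over 0.5 in size. Of the 17134 genes tested, 14.8% were called higher in the mutants and 7.41% lower, beside 1 of the 9 members in each direction.

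*Chd5*, the NuRD motor best known from neurons and late spermatids, stood at 56.5, 67.4 and 59.0 CPM in the c-Kit+ controls and at 29.0, 32.9 and 26.0 CPM in the mutants. The highest mutant library lay well below the lowest control. The fold was 0.481 (95% interval 0.409 to 0.566; log2 fold change -1.06, SE 0.11, adjusted p = 0.000192), and 92.7% of all genes tested changed by less.

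*Chd1*, whose protein spaces nucleosomes behind elongating polymerase, stood at 47.8, 43.8 and 47.9 CPM in the controls and at 66.1, 66.6 and 68.5 CPM in the mutants. The groups were apart and each was tight. The fold was 1.44 (95% interval 1.29 to 1.61; log2 fold change 0.53, SE 0.07, adjusted p = 0.000497), close to the minimum of 0.5, and without control replicate 2 the log2 fold change was 0.48 (adjusted p = 0.000921), under that minimum. *Chd2*, the nearest relative of *Chd1*, stood at 115, 128 and 89.3 CPM in the controls and at 122, 113 and 103 CPM in the mutants (log2 fold change 0.03, 95% interval -0.24 to 0.29, adjusted p = 0.884).

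The other NuRD motors had smaller differences than *Chd5*. *Chd4* stood at 824, 887 and 833 CPM in the c-Kit+ controls and at 702, 719 and 708 CPM in the mutants, with no overlap. Its log2 fold change of -0.26 (SE 0.05, adjusted p = 0.00352) passed the adjusted p and missed the minimum on the fold. *Chd3* stood at 303 to 327 CPM in the controls and at 299 to 304 CPM in the mutants (log2 fold change -0.05, 95% interval -0.17 to 0.07, adjusted p = 0.489).

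In the subfamily of *Chd8*, *Chd6* stood at 277, 298 and 274 CPM in the c-Kit+ controls and at 227, 244 and 219 CPM in the mutants. These libraries too did not overlap, and the log2 fold change was -0.30 (SE 0.06, adjusted p = 0.00440), again under the minimum. With no minimum on the fold 18.3% of genes were called lower, beside *Chd4*, *Chd5* and *Chd6*. *Chd7* stood at 51.2, 47.2 and 41.7 CPM in the controls and at 39.1, 46.9 and 38.7 CPM in the mutants (log2 fold change -0.17, 95% interval -0.40 to 0.07, adjusted p = 0.238). *Chd9* stood at 40.1, 49.2 and 42.9 CPM in the controls and at 53.8, 45.7 and 43.5 CPM in the mutants (log2 fold change 0.11, 95% interval -0.12 to 0.35, adjusted p = 0.428). For both, the libraries of the groups overlapped. Separation of all 3 mutant from all 3 control libraries was common in this population: it was seen downwards in 25.2% of genes and in 3 members, and upwards in 27.2% of genes and in 1 member.

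Other cell types moved in the same comparison. The somatic markers summed to 3560, 3010 and 3440 CPM in the c-Kit+ controls and to 6960, 5420 and 6360 CPM in the mutants, and 28 of the 39 somatic markers tested were called higher and 0 lower (exact test and DESeq2, 30 higher and 0 lower each). The 5 germ cell markers summed to 2070 to 2440 CPM in the controls and to 1640 to 1890 CPM in the mutants, with a median log2 fold change of -0.29, close to those of *Chd4* and *Chd6*. All 5 meiotic markers (*Sycp1*, *Sycp2*, *Sycp3*, *Prdm9* and *Dmc1*, of chromosome axis and recombination) were called lower, with a median log2 fold change of -1.72. The part of this in the values of the *Chd* genes was not tested.

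**Figure D3:**
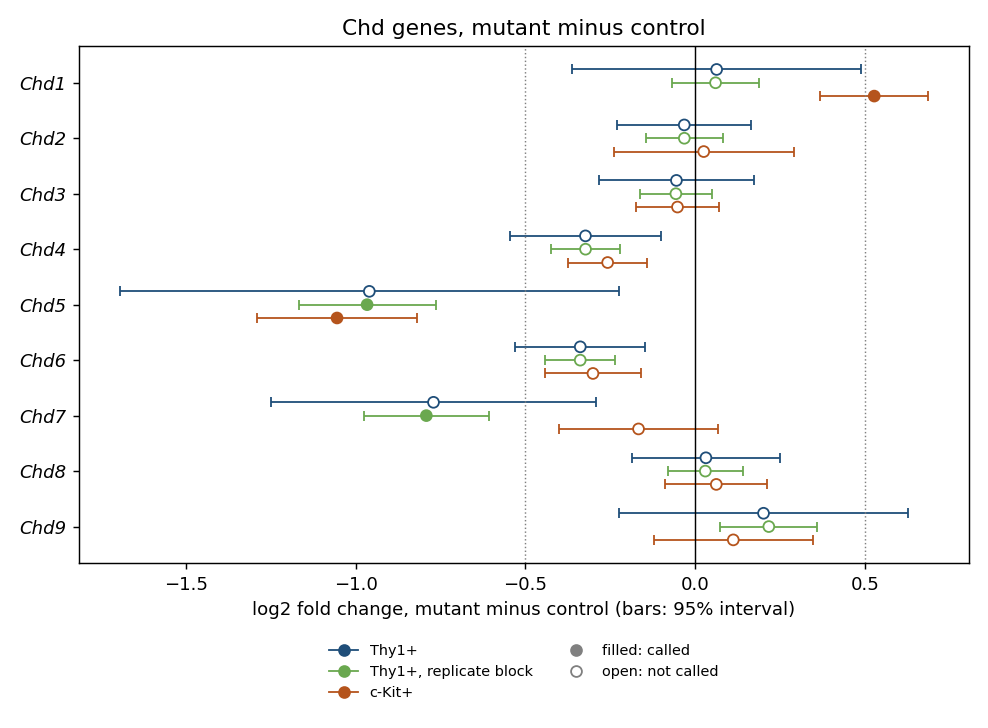
Log2 fold change, mutant minus control, of the 9 *Chd* genes in Thy1+ cells, in Thy1+ cells with the replicate number as a block, and in c-Kit+ cells (points, 3 libraries a group; bars, 95% interval; dotted lines, the minimum of 0.5 either way; filled points, called). *Chd5* lies near -1 in all 3 fits with a far narrower interval under the block, *Chd7* is called in the blocked Thy1+ fit alone, and *Chd8* lies near 0.

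In Thy1+ spermatogonia *Chd5* and *Chd7* were the members with the largest differences, both lower in the mutants. The call on *Chd5* depended on whether the replicate numbers were used. The call on *Chd7* depended on the test as well, since other tests called it without them. Without the replicate number, 0% of the 17416 genes tested were called in either direction by the edgeR quasi-likelihood test, and none of the 9 members. An unadjusted p under 0.05 in that test was reached by 4 members, beside 2151 of the 17416 genes. The edgeR exact test, which the paper used, and DESeq2 each called *Chd7* lower, beside 1.57% and 1.87% of all genes. Libraries with the same replicate number deviated together, which met the limit set for pairing, and with the replicate number as a block *Chd5* and *Chd7* were called lower, beside 4.92% of all genes.

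*Chd5* stood at 22.4, 44.6 and 38.5 CPM in the Thy1+ controls (replicates 1 to 3) and at 12.2, 25.5 and 16.5 CPM in the mutants. The spread within each group was wide and replicate 2 of the mutants lay above replicate 1 of the controls, but within each number the mutant had 0.545, 0.571 and 0.428 times the level of its control. The log2 fold change was -0.96 (SE 0.32, adjusted p = 0.334) and, under the block, -0.97 (SE 0.10, adjusted p = 4.72e-06).

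*Chd7*, which binds enhancers and is the CHARGE syndrome gene, stood at 65.8, 71.6 and 52.5 CPM in the Thy1+ controls and at 31.2, 49.1 and 30.9 CPM in the mutants. The groups did not overlap, and the ratios within a number were 0.475, 0.686 and 0.588. The log2 fold change was -0.77 (SE 0.21, adjusted p = 0.278) and, under the block, -0.79 (SE 0.09, adjusted p = 1.09e-05). The edgeR exact test gave an adjusted p of 0.0279, and DESeq2 0.0375.

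*Chd4* stood at 857, 921 and 827 CPM in the Thy1+ controls and at 667, 733 and 681 CPM in the mutants, and *Chd6* at 267, 276 and 272 CPM in the controls and at 211, 218 and 216 CPM in the mutants. Neither gene's groups overlapped, and *Chd6* had nearly the same ratio within each number, 0.788, 0.790 and 0.794. The log2 fold changes were -0.32 for *Chd4* (adjusted p = 0.300; under the block 0.000118) and -0.34 for *Chd6* (adjusted p = 0.240; under the block 9.58e-05), both under the fold minimum. Under the block and with no minimum, 13.6% of genes were called lower. *Chd4*, *Chd6* and *Chd7* were the members whose Thy1+ mutant libraries all lay below the controls, as did those of 9.92% of all genes.

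The remaining members differed little in Thy1+ cells. *Chd1* stood at 83.8, 59.6 and 63.2 CPM in the controls and at 89.3, 60.8 and 66.0 CPM in the mutants (log2 fold change 0.06, 95% interval -0.36 to 0.49). The order of the 3 numbers was the same in both groups. *Chd2* stood at 130 to 139 CPM in the controls and at 131 to 135 CPM in the mutants, and *Chd3* at 283 to 314 and at 260 to 303 CPM (log2 fold changes -0.03 and -0.05, adjusted p = 0.885 and 0.822). *Chd9* stood at 61.2, 56.1 and 86.7 CPM in the controls and at 78.2, 66.7 and 89.9 CPM in the mutants, with a log2 fold change of 0.20 (adjusted p = 0.641; under the block 0.22, adjusted p = 0.0232, under the fold minimum).

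Cell type markers differed here as well. The somatic markers summed to 15400, 11900 and 15500 CPM in the Thy1+ controls and to 18600, 13500 and 20600 CPM in the mutants, and the germ cell markers to 1360, 1960 and 1390 CPM in the controls and to 993, 1610 and 1050 CPM in the mutants. All 7 markers of undifferentiated spermatogonia were lower, with a median log2 fold change of -0.85 and sums of 570 to 818 CPM in controls and 382 to 457 CPM in mutants. All 5 meiotic markers were lower too (median -0.91), and 4 of 5 markers of differentiating spermatogonia (median -0.30). The quasi-likelihood test called 0 genes of these lists. Replicate 2 had the lowest somatic and the highest germ cell marker sum in both genotypes. It also had the highest *Chd4*, *Chd5* and *Chd7* and the lowest *Chd1*, *Chd3* and *Chd9* of its group. Its *Chd6* was the highest in CPM on the scale of this comparison, but in RPKM replicate 3 was higher in both genotypes. Of the 42 somatic markers tested 0 were called by the quasi-likelihood test. An unadjusted p under 0.05 in that test was reached by 7, beside 2151 of 17416 genes. The exact test and DESeq2 each called 1 higher, the stromal gene *Lum*, beside 0.115% and 0.299% of all genes. With the block 10 were called higher, beside 3.2% of all genes, and 6 of the 10 were Sertoli genes. The part of this in the values of the *Chd* genes was not tested.

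The genotype effects of both populations were set against each other with an interaction term, fitted over the 12 libraries. It was called for 0% of 18002 genes and for none of the 9 members by the edgeR quasi-likelihood test. DESeq2 called 0 members, beside 0.244% of genes higher and 0.111% lower. In the quasi-likelihood test 2 members had an unadjusted p under 0.05, beside 1804 of the 18002 genes. The largest differences between the effects, c-Kit+ minus Thy1+, were 0.67 on the log2 scale for *Chd7* (95% interval 0.13 to 1.20, unadjusted p = 0.0182, adjusted p = 0.431) and 0.53 for *Chd1* (95% interval 0.07 to 0.99, unadjusted p = 0.0281, adjusted p = 0.449). For *Chd5* the difference was -0.03, with an interval of -0.82 to 0.75 that leaves room for effects of quite different size. The call of *Chd1* in c-Kit+ cells and of *Chd7* in blocked Thy1+ cells was thus not shown to belong to 1 population.

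The summed RPKM of the 9 genes was 287 ± 3.71 (SD, n = 3) in Thy1+ controls and 248 ± 1.40 in Thy1+ mutants, and 268 ± 13.1 in c-Kit+ controls and 251 ± 4.14 in c-Kit+ mutants, on 1 scale for the 12 libraries. The libraries did not overlap between genotypes in either population. On this scale *Chd4* made up -28.1 of the difference of -39.0 RPKM in Thy1+ cells and -16.4 of -16.6 RPKM in c-Kit+ cells, where the differences of *Chd5* (-3.09) and *Chd6* (-4.00) stood against those of *Chd1* (2.83) and *Chd8* (3.00). The c-Kit+ values depend on the scale: with the TMM factors of the 6 c-Kit+ libraries alone, a scale added after the data were seen, the sum differed by -27.5 RPKM, with -21.5 from *Chd4* and 1.59 from *Chd8*, so that the share of *Chd4* in the difference was 78.2% in place of 98.6%. In TPM *Chd4* made up -56.2 of -74.5, or 75.5%, in c-Kit+ cells. As a share of the summed level, *Chd4* went from 48.0% ± 1.54 to 44.2% ± 2.21 in Thy1+ cells and from 47.3% ± 0.565 to 43.9% ± 0.536 in c-Kit+ cells (SD, n = 3). *Chd8* went from 11.5% ± 0.323 to 13.5% ± 0.970 and from 12.8% ± 0.474 to 14.8% ± 0.219, without a called difference of its own. *Chd5*, for all its change, made up 1.32% and 2.31% of the family in the controls and 0.781% and 1.23% in the mutants. These shares were not tested.

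**Figure D4:**
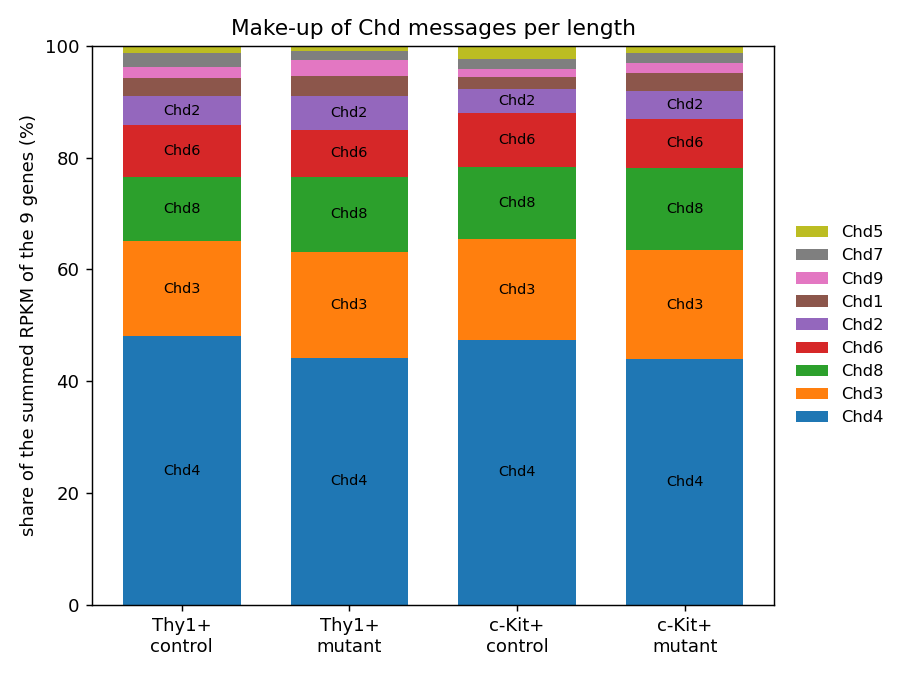
Share of each *Chd* gene in the summed RPKM of the 9 genes (vertical axis, percent, means of 3 libraries) in the 4 groups. *Chd4* takes 43.9% to 48.0% in every group, and *Chd8* has the larger share in the mutants of both populations.

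Between the control populations, *Chd1*, *Chd7* and *Chd9* were higher and *Chd5* lower in Thy1+ than in c-Kit+ cells. In this comparison 20.7% of 17350 genes were higher and 7.08% lower by the same rule for a call, beside 3 members and 1 member (scaled by library size only, 18.7% and 10.7%). The control libraries are the same as in the comparisons above, and CPM are here on the scale of this comparison. *Chd9* was at 71.0 ± 17.3 CPM (SD, n = 3) in the Thy1+ controls, against 42.6 ± 4.55 CPM in those sorted for c-Kit (log2 fold change 0.74, SE 0.17, adjusted p = 0.0115). *Chd1* was at 72.0 ± 15.1 and 44.9 ± 2.15 CPM (log2 fold change 0.68, SE 0.15, adjusted p = 0.00832), and *Chd7* at 66.0 ± 9.92 and 45.2 ± 4.99 CPM (log2 fold change 0.55, SE 0.14, adjusted p = 0.0156). *Chd5* was at 36.5 ± 11.3 and 59.0 ± 5.67 CPM (log2 fold change -0.69, SE 0.22, adjusted p = 0.0346). None of these 4 calls held with each library left out in turn: *Chd9* was lost without Thy1+ replicate 3 (0.47) or c-Kit+ replicate 3 (adjusted p = 0.0510), *Chd1* without Thy1+ replicate 1 (0.48), *Chd7* without either of Thy1+ replicates 1 and 2 (0.49 and 0.42) or c-Kit+ replicates 2 and 3 (adjusted p = 0.0527 and 0.0712), and *Chd5* in 5 of 6 cases. *Chd2* had a log2 fold change of 0.40 (adjusted p = 0.0419), under the minimum, and was called without c-Kit+ replicate 2 (0.53, adjusted p = 0.0297). *Chd3*, *Chd4*, *Chd6* and *Chd8* had log2 fold changes of 0.03, 0.14, 0.05 and -0.03 and were not called.

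Between the mutant populations, 15.3% of 17346 genes were called higher in Thy1+ cells and 5.03% lower (scaled by library size only, 13.8% and 8.01%), and *Chd9* was the member called by edgeR's quasi-likelihood test, at 79.6 ± 11.8 CPM in the Thy1+ mutants against 46.5 ± 5.32 CPM (log2 fold change 0.78, SE 0.13, adjusted p = 0.00327). It remained called with any library left out. *Chd5* had a log2 fold change of -0.64 (adjusted p = 0.0782). It was called at a like fold by the exact test (adjusted p = 0.0222), DESeq2 (adjusted p = 0.0345) and the quasi-likelihood test with the replicate block (adjusted p = 0.017). Of all genes, 7.01%, 6.68% and 6.84% were called lower there. Without Thy1+ mutant replicate 2 *Chd5* had a log2 fold change of -0.96 and an adjusted p of 0.00246 in the quasi-likelihood test, beside 10.2% of genes called lower. *Chd1* and *Chd7*, called between the controls, were at 73.3 ± 15.4 and 65.3 ± 1.45 CPM and at 37.7 ± 10.6 and 40.5 ± 4.31 CPM (log2 fold changes 0.16 and -0.10, adjusted p = 0.395 and 0.697). Their interactions, given above, did not pass the test. Somatic markers moved both ways between the populations: 18 of 40 tested were called higher and 9 lower in Thy1+ cells between the controls (median log2 fold change 0.43), and 17 of 41 higher and 10 lower between the mutants (median 0.01), where all 6 stromal markers were called higher and all 6 Leydig and 4 tested mast cell markers lower. Their part in the values of the *Chd* genes was not tested.

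**Figure D5:**
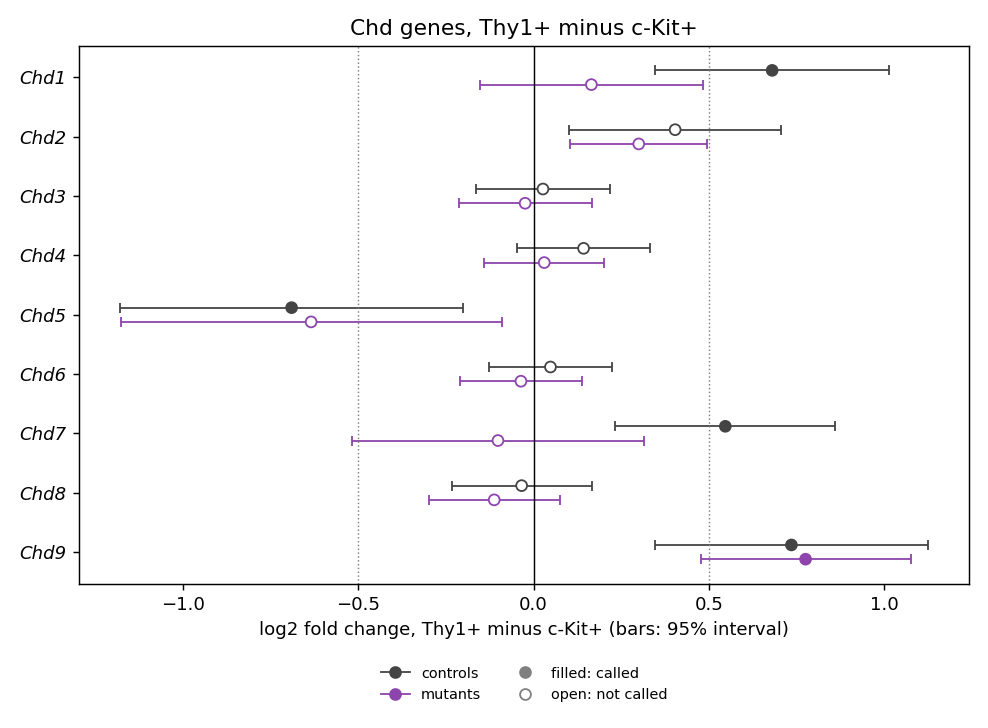
Log2 fold change, Thy1+ minus c-Kit+, of the 9 *Chd* genes in control and in mutant libraries (points, 3 libraries a group; bars, 95% interval; dotted lines, the minimum of 0.5 either way; filled points, called). *Chd9* lies near 0.75 in both genotypes, whereas *Chd1* and *Chd7* are called between the controls only and their difference between genotypes did not pass its own test.

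Over the 12 libraries, the levels of *Chd4* and *Chd6* went together most closely, with a Pearson correlation of log2 CPM of 0.918, followed by *Chd7* with *Chd4* (0.853), *Chd5* with *Chd6* (0.771) and *Chd2* with *Chd9* (0.744). *Chd1* was nearest to *Chd9* (0.584), and *Chd3* and *Chd8* to each other (0.300). *Chd1* and *Chd5* ran opposite to each other (-0.882). The points share genotype, population, somatic content and depth, so these values describe the 12 libraries. Among all 18002 genes, those most like *Chd8* were *H60b* (0.903), *Cd2ap* (0.902) and *Kcnj3* (0.897). *H60b* and *Kcnj3* had group means under 1 CPM, and *Cd2ap*, which encodes an adaptor protein, had group means of 184 to 218 CPM.

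Genes of 3 related lists were read in c-Kit+ mutants against the share of all genes called there, 14.8% higher and 7.41% lower. Of 12 NuRD subunits other than the motors, 0 were called by the edgeR quasi-likelihood test, the exact test or DESeq2. In the quasi-likelihood test 6 had an unadjusted p under 0.05, as did 8191 of the 17134 genes tested. An adjusted p under 0.05 was reached by 4, which missed only the fold minimum, as *Chd4* and *Chd6* did. Of all genes, 20.8% were higher and 18.3% lower at that adjusted p. The median log2 fold change of the subunits was 0.01, the same as that of all genes. Of 6 known binding partners of CHD8, among them *Ctcf*, *Wdr5* and *Ctnnb1*, 0 were called (2 at an unadjusted p under 0.05, both of them also under 0.05 after adjustment; exact test and DESeq2, 0 each), with a median of -0.06. Of 22 other SNF2-type ATPases 2 were called higher and 3 lower, with a median of -0.21 and 17 below 0. *Smarca1*, an ISWI motor, rose from 54.3 ± 2.19 to 103 ± 14.0 CPM (SD, n = 3; log2 fold change 0.92, adjusted p = 0.000212). *Smarca2*, a SWI/SNF motor, rose from 92.7 ± 16.2 to 164 ± 5.90 CPM (0.83, adjusted p = 0.000483). *Rad54l*, a motor of homologous recombination, fell from 60.1 ± 3.00 to 36.1 ± 5.81 CPM (-0.73, adjusted p = 0.000795). *Btaf1*, which removes TATA-binding protein from DNA, fell from 214 ± 34.1 to 142 ± 5.82 CPM (-0.59, adjusted p = 0.00147), and *Rad54l2* fell from 135 ± 6.14 to 94.6 ± 0.925 CPM (-0.52, adjusted p = 0.000327). In Thy1+ mutants 0 genes of the 3 lists were called by any of the 3 tools. An unadjusted p under 0.05 in the quasi-likelihood test was reached by 1 NuRD subunit, 5 other ATPases and 0 partners, beside 2151 of 17416 genes. With the block *Rad54l* and *Zranb3* were called lower, beside 4.92% of all genes.

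Exons of another gene lay over those of *Chd2* and *Chd6*. The exons of *Chaserr*, a long noncoding RNA beside *Chd2*, overlap those of *Chd2* by 634 bases on the same strand. *Chaserr* was at 22.8 ± 1.15 CPM in c-Kit+ controls and 27.9 ± 1.34 CPM in c-Kit+ mutants on the scale of the 12 libraries (log2 fold change 0.23, adjusted p = 0.0645), and in Thy1+ cells the log2 fold change was 0.29 (adjusted p = 0.504). A gene without a symbol, antisense to *Chd6* and overlapping 1040 bases of its exons, had at most 4 counts in a library. The small nucleolar RNA *Snord8* lies within *Chd8* without touching an exon.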

How the data were processed

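RNA-seq was available for 12 libraries (4 groups of 3). The 30 ChIP-seq samples were not analysed here. Per the methods, the authors cleaned the read pairs (Trimmomatic 0.39), aligned them to mm10 (HISAT2 2.1.0) and counted them with featureCounts. The file header gives version 2.0.3, where the methods give another, and a RefSeq annotation, without options for strand or fragments. They deposited unscaled counts of each gene. Both reads of a fragment were counted: 65.6% to 69.5% of counts from 1 to 19 were even. The count table also gives the authors' gene length, in bases. Totals are in the report, and pairs of replicates differed by more than counting error (chi-square per degree of freedom 10.3 to 72.4).

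Of 27179 gene IDs, 25275 matched a symbol. Genes were tested with edgeR 4.0.16 in R 4.3.3 (TMM, filterByExpr, quasi-likelihood test, Benjamini-Hochberg adjustment over all genes). Calls required an adjusted p under 0.05 and a log2 fold change over 0.5 in size, the latter not for the interaction. CPM of the *Chd* genes and of single list genes are on the TMM scale of each comparison. RPKM and the CPM of the marker sums, *Kit*, *Thy1* and *Chaserr* are on that of the 12 libraries. Correlations used log2(CPM + 1). The limit for pairing was that all deviations of libraries of 1 number from the group means correlated at over 0.1. It was met in Thy1+ cells (0.266 to 0.490), c-Kit+ cells (0.101 to 0.125) and controls (0.134 to 0.298). It was not met in mutants (1 of 3 pairs) or the interaction (10 of 18). The main fits had no term for the replicate number in any comparison, so p-values given without the block are unpaired. Alternatives were the edgeR exact test, DESeq2 1.42.0, its size factors in edgeR, library size only, other filters, a fit of 12 libraries, no fold minimum, the replicate block, TPM, and each library left out. The fits were tested on simulated counts. Sequences are RefSeq's (GRCm38, the same build as mm10), read with samtools 1.23.1 and aligned with Biopython 1.88.

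The members, lists and tests were chosen with earlier results of these data known. Named genes were the 9 members, the sorting antigens, list genes called in c-Kit+ cells (at most 5 a list), the 3 genes most correlated with *Chd8*, the closest member to each member, and genes with overlapping exons. Genes of marker lists, *Zranb3* and *Lum* were named after their values were seen.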

Additional observations from a re-analysis of the deposited data

How the results depend on the processing

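Of 702 log2 fold changes of the 9 members under an alternative, 637 kept their direction and their side of the threshold, 14 lost a call, 14 gained one and 37 changed sign. In Thy1+ cells the 0 calls became 1 with the exact test, DESeq2 or a fit of 12 libraries (*Chd7* each time) and 2 with the replicate block, and remained 0 with each library left out. In c-Kit+ cells the 2 calls became 4 with no fold minimum and ran from 1 to 2 with a library left out; the replicate block changed no call of a member there or between the controls. Between the controls the 4 calls ran from 1 to 3 with a library left out, and *Chd7* (0.46) was lost with library size only. Between the mutants the 1 call (*Chd9*) became 2 with the exact test, DESeq2 or the replicate block (*Chd5* added each time). It also became 2 with no fold minimum (*Chd2* added, 0.30, adjusted p = 0.0332 in the quasi-likelihood test). Not all pairs of the mutants met the limit for the block. With a library left out the calls between the mutants ran from 1 to 2. In the interaction 0 members were called under any alternative run, the block included, in which *Chd7* had an adjusted p of 0.0559 and 422 genes were called higher and 24 lower. The exact test, the fit of 12 libraries and the fold minimum had no counterpart for the interaction and were not run. The cause of these changes was not tested.

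Signs turned only for members not called in that comparison. With library size only, these were *Chd8* in Thy1+ cells (-0.0036), *Chd3* (-0.0595) and *Chd6* (-0.0376) between the controls and *Chd4* between the mutants (-0.0536), a scaling that moved the median of all genes between the mutants from -0.03 to -0.12. With a fit of 12 libraries they were *Chd3* in c-Kit+ cells (0.0064) and *Chd4* between the mutants (-0.0122). *Chd3* was -0.0117 between the controls both with DESeq2 and with its size factors, -0.0111 with at least 1 CPM in 3 libraries, and -0.0114 and -0.0115 in the interaction with DESeq2 and with its size factors. With a library left out, the ranges were -0.12 to 0.23 for *Chd1* and -0.028 to 0.0515 for *Chd8* in Thy1+ cells, -0.11 to 0.14 for *Chd2* in c-Kit+ cells, -0.067 to 0.0619 for *Chd3*, -0.0013 to 0.0899 for *Chd6* and -0.10 to 0.0329 for *Chd8* between the controls, -3e-04 to 0.29 for *Chd1*, -0.0685 to 0.0535 for *Chd3*, -0.0876 to 0.0033 for *Chd6* and -0.34 to 0.0222 for *Chd7* between the mutants, and -0.0135 to 0.24 for *Chd2*, -0.019 to 0.12 for *Chd3*, -0.32 to 0.30 for *Chd5* and -0.24 to 0.0915 for *Chd9* in the interaction.

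Over all genes, the Thy1+ comparison called 0 higher and 0 lower against 20 and 274 with the exact test, 52 and 326 with DESeq2, 14 and 236 with a fit of 12 libraries and 558 and 856 with the block. The c-Kit+ comparison called 2542 and 1270, and 3571 and 3139 with no fold minimum. RPKM moved by at least 1 SD in 38 of 180 cases, 36 of them TPM, another unit. The lowest level of a member in any library was 12.2 CPM (*Chd5*).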
